A study of Homo sapiens with 16 samples.

Results

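The AP-1 and immediate early factors are 10 human genes: the JUN family members JUN, JUNB and JUND, the FOS family members FOS and FOSL2, the transcription factors EGR1 and KLF6, the immediate early response genes IER2 and IER3, and the phosphatase gene DUSP1. They were taken by symbol, and all 10 were found among the 20531 entries of the gene table. Their mRNA was followed in LNCaP, an androgen-responsive line of human prostate cancer cells, that had been transfected with a nonsense control siRNA (NS) or with a pool of siRNAs against SLIRP, an RNA-binding protein that acts as a co-repressor of nuclear receptors and in the handling of mitochondrial mRNA. Each siRNA was combined with vehicle or with 1 nM dihydrotestosterone (DHT), the main ligand of the androgen receptor, which gave 4 groups of 4 libraries. They are called NS-Veh and SLIRP-Veh (vehicle), and NS-1nM DHT and SLIRP-1nM DHT (hormone). Per the study's methods, vehicle or DHT was given after transfection, in serum-free medium, for a day before RNA was collected. The comparisons ask how these genes differed between the siRNAs, what DHT did to them, and whether the DHT response depended on the siRNA. All groups are the same cell line, and the labels do not say which libraries came from which experiment, so p-values measure the spread between these libraries.

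AP-1 is a dimer of a JUN protein with another JUN protein or with a FOS family protein, which binds a short palindromic DNA element and turns signals from MAP kinase cascades into transcription. Immediate early genes are transcribed within minutes of a growth factor or stress signal, from factors that already wait at their promoters, and their mRNA decays fast. EGR1 and KLF6 are zinc finger transcription factors, IER2 and IER3 encode small proteins of the same early response, and DUSP1 removes the phosphates that activate MAP kinases. JUND and FOSL2 are the more constant members of their families, whereas FOS and EGR1 are nearly silent in cells that receive no fresh signal.

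The promoters of 4 members are shown first, because these genes carried the differences described here: JUN, JUND and FOSL2, which were called lower after SLIRP knockdown, and EGR1, whose few reads lay mostly in the knockdown libraries. Each line gives the 250 bases before the RefSeq start of the gene, on the strand of the gene, in GRCh38.p14. JUN lies at chr1:58784048-58784297 (minus strand), JUND at chr19:18281623-18281872 (minus strand), FOSL2 at chr2:28392608-28392857 (plus strand) and EGR1 at chr5:138465229-138465478 (plus strand). Capitals mark the cAMP response element of JUND (TGACGTCA), its variant in JUN (TGACATCA) and the CArG boxes of EGR1, the element bound by serum response factor.
JUN: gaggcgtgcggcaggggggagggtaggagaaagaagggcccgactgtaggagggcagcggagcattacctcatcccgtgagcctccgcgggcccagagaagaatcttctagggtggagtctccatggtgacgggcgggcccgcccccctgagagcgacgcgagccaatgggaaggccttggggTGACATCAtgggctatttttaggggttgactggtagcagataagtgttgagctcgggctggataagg
JUND: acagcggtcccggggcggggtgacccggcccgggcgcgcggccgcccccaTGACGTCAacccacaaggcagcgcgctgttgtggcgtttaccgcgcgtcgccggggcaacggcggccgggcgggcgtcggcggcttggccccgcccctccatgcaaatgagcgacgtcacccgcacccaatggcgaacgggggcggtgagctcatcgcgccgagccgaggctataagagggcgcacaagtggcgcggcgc
FOSL2: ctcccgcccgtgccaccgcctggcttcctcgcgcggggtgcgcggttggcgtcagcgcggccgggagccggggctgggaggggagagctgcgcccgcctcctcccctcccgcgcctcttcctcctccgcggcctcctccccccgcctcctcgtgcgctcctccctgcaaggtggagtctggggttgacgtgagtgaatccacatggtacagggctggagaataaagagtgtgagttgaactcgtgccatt
EGR1: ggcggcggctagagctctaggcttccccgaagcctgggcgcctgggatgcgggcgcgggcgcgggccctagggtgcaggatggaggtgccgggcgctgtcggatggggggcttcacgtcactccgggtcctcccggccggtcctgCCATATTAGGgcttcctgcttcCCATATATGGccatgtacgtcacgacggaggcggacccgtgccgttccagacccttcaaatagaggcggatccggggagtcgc

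A promoter entry existed for 9 of the 10 members. Letters were searched on both strands, and none of the marked elements overlapped another. The variant element TGACATCA began 67 bases before the start of JUN, and it was also found in KLF6, against 2.37% of all 35116 promoters of this length. The full element TGACGTCA began 200 bases before the start of JUND and 125 before that of DUSP1, against 1.65% of all promoters. Among these 9 windows of 250 bases, only that of EGR1 held a CArG box. It held 2, beginning 105 and 83 bases before its start, where 1.16% of all promoters hold at least 1. Bases further upstream were not searched in any member. The consensus AP-1 element TGANTCA was in 0 of the 9 windows and in 6.57% of all promoters. A GC box (GGGCGG) was in 7 of the 9 windows and in 42.6% of all promoters, and TATAAA was in 3 (FOS, JUNB and DUSP1) against 10.7%. The 9 windows held 62% (JUN) to 74.8% (JUND) G and C, against a median of 58% over all promoters. The shares were not compared at equal G and C content. FOSL2 held a GC box and none of the other 5 elements. A match describes letters and is not evidence that a factor was bound.

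In the hg19 build used for the deposited values, JUND occupies chr19:18390504-18392432 and JUN chr1:59242517-59249720, both on the minus strand, and their main (MANE) transcripts have 1 exon each, as does that of JUNB (chr19:12902300-12904129). FOSL2 lies at chr2:28615315-28640184 and FOS at chr14:75745529-75748933, each with 4 exons. The main transcript of JUNB shares 259 bases with HOOK2 on the opposite strand, that of IER2 (chr19:13261225-13265725) shares 946 bases with an antisense lncRNA, and that of IER3 (chr6:30710976-30712325) shares 440 bases with IER3-AS1. Whether reads were counted by strand is not given in the sources used here, so reads of these 3 genes and of their antisense neighbours cannot be told apart. EGR1 (chr5:137801168-137804992), KLF6 (chr10:3818188-3827473) and DUSP1 (chr5:172195099-172198198) had no such neighbour, and neither did JUN, JUND, FOS or FOSL2.

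The libraries held 436353 to 1689708 assigned counts, with a median of 1091545, and the 2 smallest were NS-Veh replicates 1 and 2. SLIRP itself, listed under the older symbol C14orf156, stood at 45.1 to 63.4 CPM (counts scaled to the library total and adjusted by TMM) in the 8 NS libraries and at 1.41 to 8.04 in the 8 SLIRP siRNA libraries. Of 8 luminal prostate markers 7 reached 3 counts in every library, and their summed level was 3665 to 4343 CPM in NS libraries and 2722 to 3436 after SLIRP knockdown. The part of this shift in the results below was not tested. The 8 markers did not move together: with the knockdown 1 was called higher and 4 lower under vehicle, and 3 higher and 4 lower under DHT. Under vehicle FOLH1 (prostate-specific membrane antigen) was at -0.67 and KLK3 (prostate-specific antigen) at 1.11 on the log2 scale. Summed markers of basal epithelium (3 genes, of which 2 were at 0 everywhere) reached at most 1.54 CPM, those of leukocytes (4 genes) 8.01, those of endothelium (3 genes) 17.4 and those of fibroblasts (4 genes) 24.0 CPM in any library, with overlapping ranges between siRNAs. Fewer cells of a kind and less RNA per cell cannot be told apart in such libraries.

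**Figure D1:**
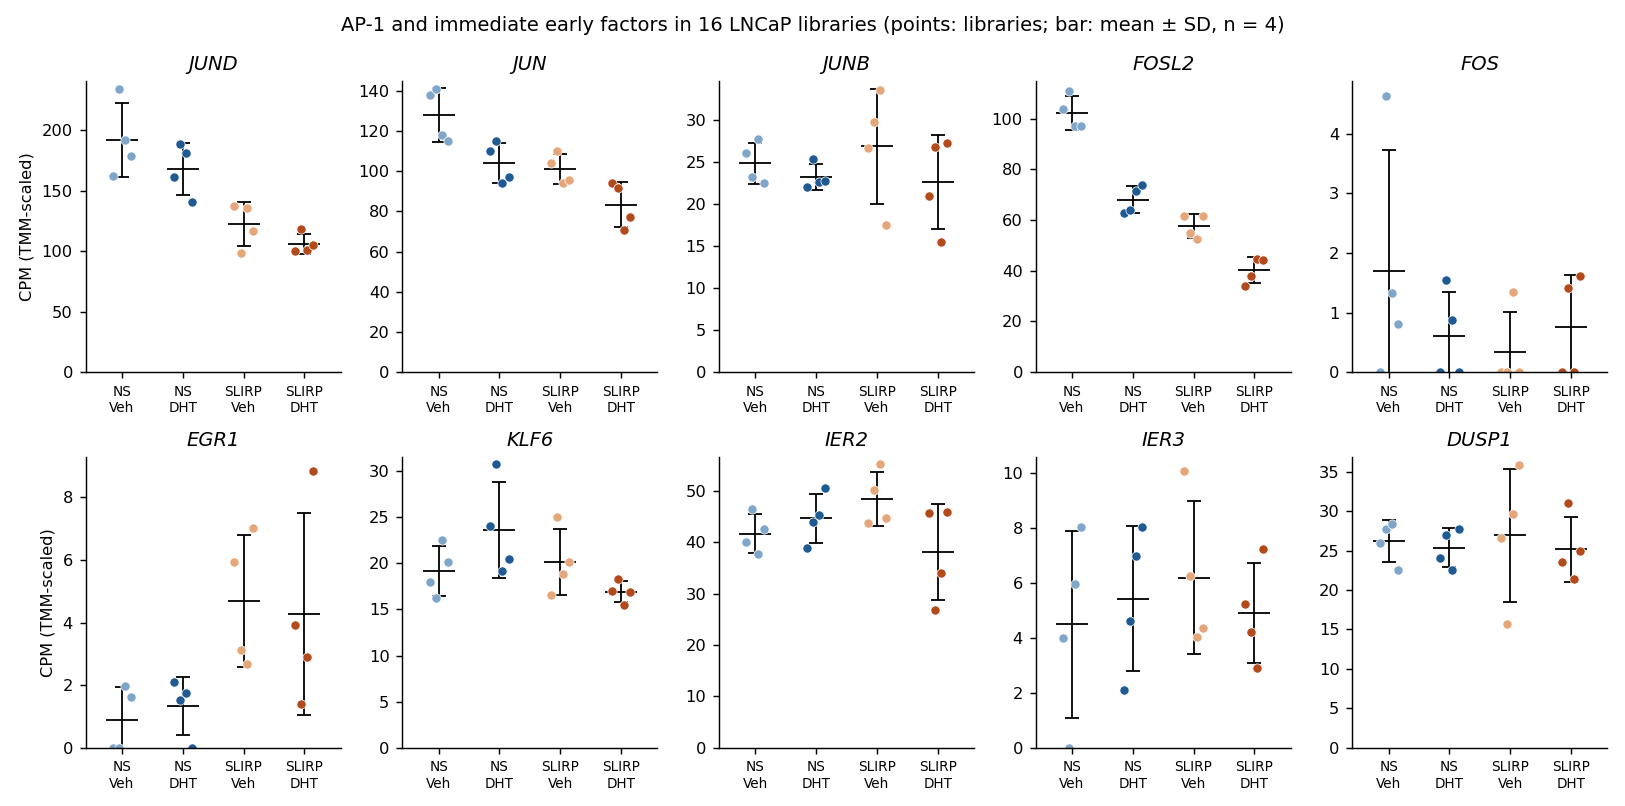
TMM-scaled CPM (vertical axes, each starting at 0) of the 10 factors in the 4 groups, with 1 point per library and bars for the mean ± SD (n = 4). JUND and FOSL2 lay lower in all 8 SLIRP siRNA libraries than in any NS library, FOSL2 fell again with DHT in NS cells, and FOS and EGR1 stayed below 10 CPM throughout.

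JUND and FOSL2 mRNA was called lower with the SLIRP siRNAs than with the control siRNA. The groups hold a single pool of SLIRP siRNAs and none with SLIRP restored. Loss of SLIRP and other effects of the pool therefore cannot be told apart. JUN was also called lower, but just inside the threshold, and the call was lost under 21 of 32 alternative fits. No change was detected in the other 4 members that could be tested. Comparing all 8 SLIRP siRNA libraries with all 8 NS libraries, 3 of the 7 tested members were called lower at an adjusted p (FDR) under 0.01 in edgeR's quasi-likelihood test, JUND, JUN and FOSL2, and 0 were called higher. Over all 10167 genes tested, 17.4% were called lower and 17.8% higher, so differences were common in this comparison and the 3 calls among 7 members have to be read against that share. FOS, EGR1 and IER3 fell below the filter on low counts.

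JUND, which can restrain proliferation as well as drive transcription in JUN dimers, was the most abundant member per kilobase of transcript. It was measured at 162, 234, 192 and 179 CPM in NS-Veh and at 161, 189, 181 and 141 CPM in NS-1nM DHT. After SLIRP knockdown it was at 137, 98.6, 136 and 117 CPM with vehicle and at 100, 118, 101 and 105 CPM with DHT. Every knockdown library was below every NS library. JUND fell by 35.6% over the 8 against 8 libraries (log2 fold change -0.64, SE 0.09, FDR = 1.42e-06). The difference was -0.61 with vehicle (FDR = 8.41e-05) and -0.67 with DHT (FDR = 2.47e-05), and both calls held under every alternative tried.

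JUN, the founding member of its family and its strongest activator, was measured at 138, 141, 118 and 115 CPM in NS-Veh and at 110, 115, 94.1 and 97.3 CPM in NS-1nM DHT. It was at 104, 110, 94.2 and 95.5 CPM in SLIRP-Veh and at 93.9, 91.7, 70.9 and 77.2 CPM in SLIRP-1nM DHT. Within each treatment the 4 knockdown libraries were below the 4 NS libraries, while the pooled groups overlapped, since the NS-1nM DHT libraries and the SLIRP-Veh libraries covered nearly the same range. Its pooled log2 fold change was -0.31 (SE 0.10, FDR = 0.00964), just inside the threshold. The call held in 11 of 32 alternatives, among them treatment as a covariate (FDR = 0.00126). It was lost when any library was left out (FDR up to 0.0286) other than NS-1nM DHT replicates 3 and 4 and SLIRP-Veh replicates 1 and 2, in DESeq2 (FDR = 0.0124) and without the 2 smallest NS-Veh libraries (FDR = 0.0414). The separate tests gave -0.30 with vehicle (FDR = 0.0459) and -0.34 with DHT (FDR = 0.0264), neither of which passed. In each of the 4 groups both libraries numbered 1 and 2 were above both numbered 3 and 4, a split by number found in 1 of the 7 tested members and, in either direction, in 153 of the 10167 genes tested. With these number pairs as a block, an alternative chosen after seeing the data, JUN was at -0.34 over the pooled libraries (FDR = 0.000246), and its difference with vehicle was called (-0.35, FDR = 0.00896) while that with DHT was not (FDR = 0.0143). Per the study's methods the 4 replicates of a group came from 2 experiments, with 2 biological replicates each. The labels do not tie the numbers to the experiments.

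JUNB, an early response JUN gene that often opposes JUN, was spread over 22.0 to 27.7 CPM in the 8 NS libraries and over 15.5 to 33.6 CPM in the 8 knockdown libraries. These ranges overlapped throughout, and the difference was 0.02 (SE 0.16, FDR = 0.961), which turned negative under some alternatives. Its level per library rested on 10 to 45 counts.

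FOSL2, which encodes the FOS-related protein FRA2, had the largest difference between siRNAs of the 7 tested members. It was measured at 104, 111, 97.1 and 97.2 CPM in NS-Veh and at 62.9, 64.0, 71.4 and 73.9 CPM in NS-1nM DHT. In the knockdown it was at 61.6, 54.8, 52.5 and 61.4 CPM with vehicle and at 33.9, 38.1, 44.7 and 44.2 CPM with DHT. The 4 groups did not overlap at all, with NS-Veh highest and SLIRP-1nM DHT lowest. The neighbouring groups NS-1nM DHT and SLIRP-Veh were at 68.0 ± 5.41 and 57.5 ± 4.62 CPM (SD, n = 4 each). Their closest libraries were at 62.9 and 61.6 CPM, and the 2 groups were not tested against each other. FOSL2 fell by 40.0% with the knockdown (log2 fold change -0.74, SE 0.13, FDR = 3.70e-05). The difference was -0.78 with vehicle (FDR = 8.94e-06) and -0.74 with DHT (FDR = 7.45e-05), and it was called under every alternative tried.

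With vehicle, 2 members were called lower, JUND and FOSL2, where 9.95% of all 10684 genes tested were lower and 11.8% were higher. With DHT the same 2 genes were called lower, where 11.6% of all genes were lower and 12.8% were higher. Counting members whose groups did not overlap gave 2 of 7 over the pooled libraries, 3 of 7 with vehicle and 4 of 7 with DHT, against 15.2%, 29.3% and 32.2% of all genes. The fourth of these with DHT was KLF6, a factor that restrains growth in prostate epithelium.

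KLF6 was measured at 24.1, 30.8, 19.2 and 20.5 CPM in NS-1nM DHT and at 17.0, 18.3, 15.5 and 16.9 CPM in SLIRP-1nM DHT. The difference with DHT was -0.49 (SE 0.23, FDR = 0.0969) and did not pass, while with vehicle it was -0.05 (FDR = 0.909). NS-Veh libraries spanned 16.2 to 22.5 CPM and SLIRP-Veh libraries 16.6 to 25.0 CPM, and these ranges overlapped. The pooled value was -0.28 (SE 0.16, FDR = 0.161).

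IER2 was nearly equal between siRNAs, at 43.1 ± 4.28 CPM (SD, n = 8) in NS libraries and 43.3 ± 8.95 CPM (SD, n = 8) in knockdown libraries. Its log2 difference was 0.21 (SE 0.17, FDR = 0.367) with vehicle and -0.21 (SE 0.17, FDR = 0.345) with DHT, so the signs were opposite and neither passed. DUSP1 spanned 22.5 to 28.4 CPM in NS libraries and 15.7 to 35.9 CPM in knockdown libraries, and its pooled difference was 0.03 (SE 0.15, FDR = 0.883). For both genes the knockdown libraries enclosed the range of the NS libraries.

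**Figure D2:**
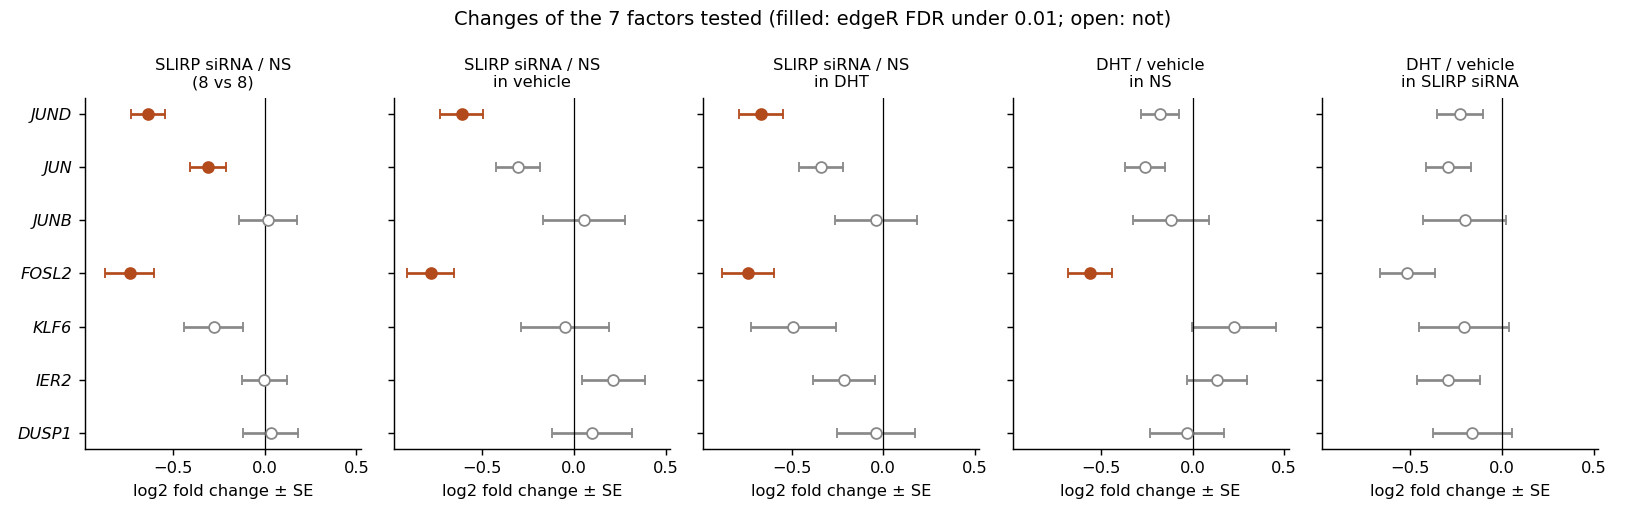
Log2 fold changes ± SE (horizontal axes) of the 7 members tested, in 5 comparisons, filled where the edgeR FDR was under 0.01. JUND and FOSL2 were called lower in all 3 comparisons of siRNAs, and JUN only over the pooled libraries. FOSL2 alone was called lower with DHT, in NS cells. The values of JUN between siRNAs in each treatment, and of FOSL2 with DHT in SLIRP siRNA cells, were also negative but not called.

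The 3 remaining members were near the limit of detection. FOS, the classical partner of JUN, gave 0 to 2 counts in each library and 12 counts in all 16, with at most 4.64 CPM. Each library thus stayed under the 3 counts that a count of 0 allows. No difference in FOS was detectable at this depth. IER3, which modulates cell survival under stress, gave 48 counts in the NS libraries and 48 in the knockdown libraries, at 0.00 to 8.04 and 2.91 to 10.1 CPM.

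EGR1, a rapid responder to growth factor signals, had more reads after SLIRP knockdown. With vehicle it gave 0, 0, 3 and 2 counts in NS cells and 10, 2, 2 and 8 counts in knockdown cells. With DHT it gave 2, 2, 2 and 0 counts in NS cells and 3, 1, 3 and 11 counts in knockdown cells. The sums were 11 counts over 8 NS libraries and 40 over 8 knockdown libraries, and the levels were 0.00 to 2.10 CPM and 1.41 to 8.85 CPM. The highest values came from 3 knockdown libraries, at 5.92, 7.01 and 8.85 CPM. SLIRP-1nM DHT replicate 2, at 1.41 CPM, lay inside the NS range. The others lay above it, at 2.69 to 3.91 CPM, on 2 or 3 counts each. In the fit without a low-count filter, which was an alternative, the log2 fold change was 1.83 (SE 0.48, FDR = 0.00215, among 16905 genes). It was 1.85 with vehicle (FDR = 0.0469) and 1.80 with DHT (FDR = 0.0423), neither of which passed. Without SLIRP-1nM DHT replicate 4 the pooled value was 1.60 (FDR = 0.0112), and leaving out any other single library kept the call. EGR1 was not called by limma on the deposited normalized table, with a log2 difference of 2.77 (FDR = 0.0129) at a pseudocount of 1 and 4.02 (FDR = 0.0254) at 0.1. In the edgeR fit without a filter FOS was at -0.77 (FDR = 0.468) and IER3 at 0.09 (FDR = 0.890), and limma called neither.

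DHT lowered FOSL2 in NS cells and no other member passed. In this comparison 0.463% of all 10367 genes tested were called lower and 0.849% higher, and 1 of 7 members was called lower. FOSL2 fell by 32.2% (log2 fold change -0.56, SE 0.12, FDR = 0.00516), with every DHT library below every vehicle library. The call was lost when any library other than NS-1nM DHT replicate 4 was left out (FDR up to 0.0226), in DESeq2, in limma on the normalized table and without the 2 smallest NS-Veh libraries. Groups that did not overlap were found for 1 of 7 members and 8.77% of all genes.

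In SLIRP siRNA cells the DHT difference of FOSL2 was -0.51 (SE 0.15, FDR = 0.0470) and did not pass. There 0 of 7 members were called, against 0.534% of all genes lower and 0.636% higher, and the DHT and vehicle libraries of FOSL2 and JUN did not overlap, as for 8.40% of all genes. JUN stood at -0.26 (SE 0.11, FDR = 0.251) in NS cells and -0.29 (SE 0.12, FDR = 0.233) in SLIRP siRNA cells. JUND stood at -0.18 (SE 0.10, FDR = 0.470) and -0.23 (SE 0.13, FDR = 0.394). IER2 was at 0.13 (SE 0.16) in NS and -0.29 (SE 0.17) in SLIRP siRNA cells, and KLF6 at 0.23 (SE 0.23) and -0.21 (SE 0.25), none of which passed.

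Whether the DHT response depended on the siRNA was tested directly in a model of all 16 libraries. The difference in response was 0.04 for FOSL2 (SE 0.20), -0.03 for JUN (SE 0.17) and -0.05 for JUND (SE 0.17), so that the response of FOSL2 did not differ detectably between siRNAs. The largest were -0.44 for KLF6 (SE 0.33) and -0.43 for IER2 (SE 0.24), and all 7 had an FDR of 1.00. Among all genes 0.00% were called in either direction by edgeR, with 388 at an unadjusted p under 0.05 and 0 to 11 called under the alternatives. The same NS groups serve the siRNA and the DHT comparisons, so the values of these comparisons are set side by side and not related to each other.

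**Figure D3:**
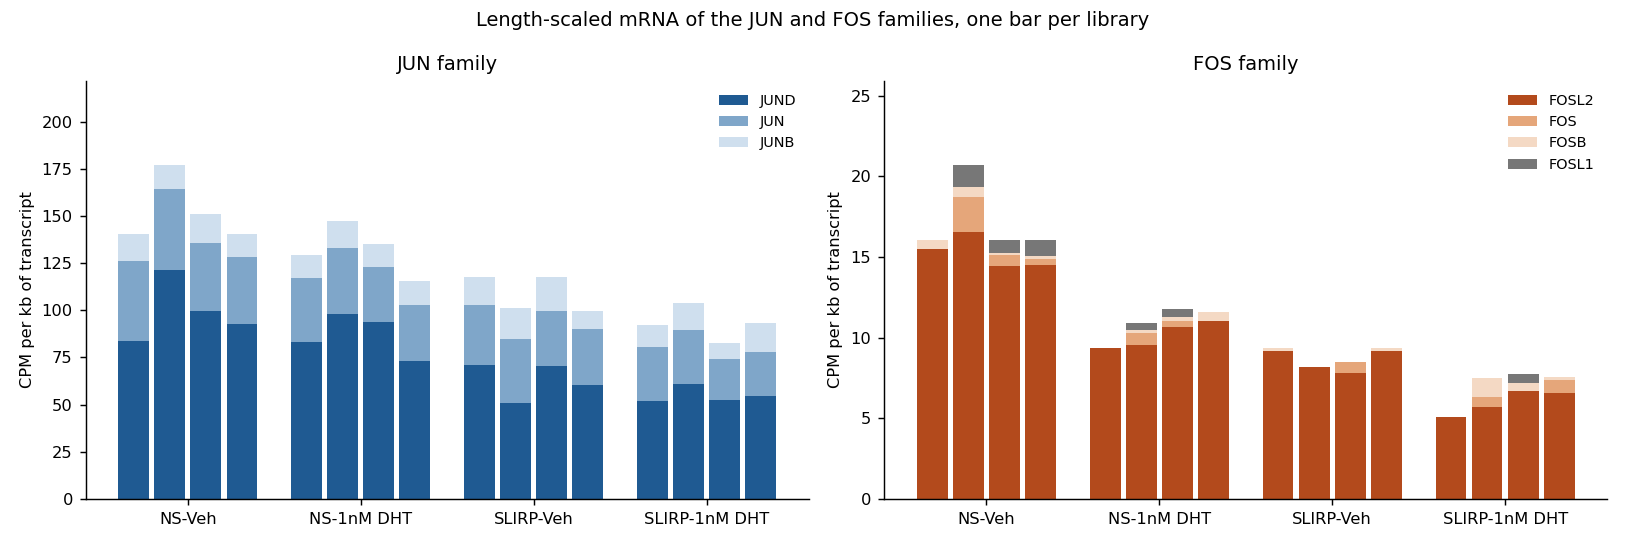
CPM per kilobase of the main transcript (vertical axes) of the JUN family and the FOS family, stacked by gene, with 1 bar per library in the 4 groups. JUND makes up most of every JUN family bar and FOSL2 most of every FOS family bar, and the bars are lower after SLIRP knockdown.

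To compare genes with each other, CPM was divided by the length of the main transcript. On this scale JUND was the leading JUN gene, with 65.1% ± 3.71 (SD, n = 4) of the summed JUN family level in NS-Veh and 66.0% ± 2.65 in NS-1nM DHT. After SLIRP knockdown its share was 57.9% ± 4.90 with vehicle and 59.3% ± 2.92 with DHT. JUNB, whose own level was not called, held 9.02% and 9.66% in the NS groups and 13.4% and 13.2% in the knockdown groups. The JUN share was 24.3% to 28.6% in the 4 groups. These shares repeat the values above on another scale and were not tested.

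The summed JUN family level per kilobase averaged 152 with vehicle (140 to 177) and 132 with DHT (115 to 147) in NS cells. In SLIRP siRNA cells it averaged 109 with vehicle (99.3 to 118) and 93.1 with DHT (82.6 to 104). FOSL2 made up 87.3% to 97.1% of the summed FOS family level in the 4 groups, with FOS, FOSB and FOSL1 at the remainder. The summed FOS family level per kilobase averaged 17.2 ± 2.36 with vehicle and 10.9 ± 1.10 with DHT in NS cells, against 8.83 ± 0.61 and 6.95 ± 1.27 in SLIRP siRNA cells (SD, n = 4 each). JUN mRNA per kilobase thus exceeded FOS mRNA in every group.

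Each member was also compared with 6965 well-expressed genes to find those whose level followed it most closely over the 16 libraries. For FOSL2 these were TSPAN3 (Pearson's r of log2 CPM 0.965), SORL1 (0.963) and ERBB2 (0.960). For JUN they were PLDN (0.940), TBX3 (0.937) and FRAT2 (0.917), and for JUND they were ZMYM2 (0.942), SPATS2 (0.936) and PRDX1 (0.921). The libraries share the siRNA and the treatment, so these values describe a common pattern over groups and say nothing of shared function. For the tested members that were not called, the nearest genes were less alike, with JUNB at 0.720 (ARHGEF5), KLF6 at 0.764 (SENP5), DUSP1 at 0.842 (CLK1) and IER2 at 0.875 (SIN3B).

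The other genes of the pathway were taken from lists compiled from textbook knowledge. Of 12 other AP-1 family members and dimer partners 6 were tested. Over the pooled libraries, where 17.8% of all genes were higher and 17.4% lower with the knockdown, 1 was higher and 0 were lower. It was MAFG, named here because it was the 1 call, a small MAF protein that pairs with other leucine zipper factors (log2 fold change 0.73, SE 0.18, FDR = 0.00153, with overlapping groups). The list's median was 0.20, against -0.01 for all genes and -0.28 for the 7 members.

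Of 37 other immediate early genes 16 were tested, with 3 higher and 3 lower and a median of 0.06, a share of 18.8% in each direction that was close to the 17.8% and 17.4% over all genes. PLK2, a kinase induced early by serum, rose from 66.9 ± 10.3 and 62.5 ± 4.05 CPM in the NS groups to 129 ± 23.4 and 99.9 ± 18.9 CPM (log2 fold change 0.86, FDR = 1.68e-07). BTG2, an antiproliferative early gene, rose by 0.64 (FDR = 2.34e-06), without overlap between siRNAs. MCL1, an antiapoptotic relative of BCL2, fell by 0.43 without overlap (FDR = 4.68e-06), and TRIB1, a pseudokinase, fell by 0.49 (FDR = 0.000460). The other calls were GADD45A, higher by 0.87, and ZFP36L2, an mRNA decay factor, which fell by 0.63, both with a mean under 30 counts and named after their values were seen.

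Of 26 genes of the MAP kinase cascades 25 were tested, with 5 higher and 5 lower and a median of 0.10. These shares were close to the 17.8% and 17.4% over all genes. Among those named by rule NRAS, a small GTPase at the head of the ERK cascade, rose from 113 ± 19.2 and 103 ± 22.2 CPM to 199 ± 15.3 and 199 ± 22.1 CPM (log2 fold change 0.87, FDR = 4.89e-09). MAPK9, a JUN N-terminal kinase, rose by 0.65 (FDR = 8.87e-06). The ERK kinases diverged, MAP2K1 higher by 0.50 (FDR = 0.000943) and MAP2K2 lower, falling from 95.9 ± 12.0 and 98.6 ± 7.61 CPM to 68.1 ± 6.04 and 70.0 ± 8.37 CPM (FDR = 2.78e-05). NRAS, MAPK9 and MAP2K2 did not overlap between siRNAs.

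The factors known to sit at immediate early promoters include SRF, whose binding element, the CArG box, is marked above in the EGR1 promoter. Binding of SRF there, and any link between its level and the EGR1 reads, was not tested. SRF rose with the knockdown from 26.2 ± 7.29 to 64.2 ± 17.3 CPM under vehicle and from 33.3 ± 2.45 to 74.2 ± 12.3 CPM under DHT. Its groups did not overlap between siRNAs (log2 fold change 1.21, SE 0.15, FDR = 4.93e-08). MKL2, a coactivator of SRF, fell by 0.57 on the log2 scale without overlap (FDR = 4.92e-06). CREB1, which binds the cAMP response element, was higher by 0.41 (FDR = 0.00105). Of 11 such factors 10 were tested, and these were the 3 called, with a list median of 0.10.

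Of 17 other MAP kinase phosphatases and ERK feedback inhibitors 9 were tested, with a median of -0.18. Of these, 0 were higher and 1 lower, against 17.8% and 17.4% over all genes. The 1 was DUSP16, a phosphatase of JUN N-terminal kinases, which fell by 0.43 on the log2 scale (FDR = 2.16e-05) and whose groups overlapped. Of 15 textbook AP-1 target genes only 2 were expressed enough to be tested, and neither passed: CCND1 (cyclin D1) was at 0.15 (FDR = 0.0337) and VEGFA, an angiogenic growth factor, at 0.20 (FDR = 0.158). With DHT in NS cells, 0 genes of these 6 lists were called by edgeR.

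**Figure D4:**
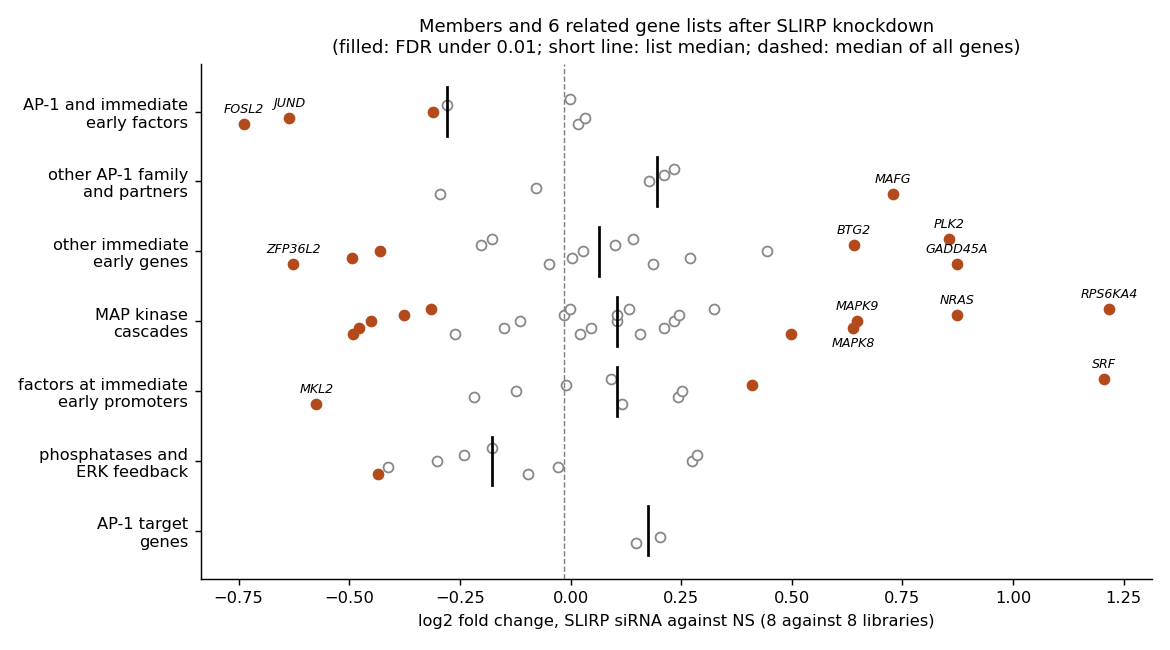
Log2 fold change between SLIRP siRNA and NS (horizontal axis, 8 against 8 libraries) of each tested gene in the members' list and 6 related lists, with filled points for an FDR under 0.01, a short line for each list's median and a dashed line for the median of all genes. The members' calls lie to the left, whereas the calls among MAP kinase genes and other immediate early genes fall on both sides and SRF lies far to the right.

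How firmly each call stood is shown by refitting it under each alternative. Over the pooled libraries FOSL2 kept an FDR between 1.75e-09 and 0.00134 and JUND one between 4.93e-09 and 0.000118 in all 32 alternatives. JUN ranged from 0.000246 to 0.0462, and the DHT difference of FOSL2 in NS cells from 0.00164 to 0.0567, so both lay on either side of the threshold. For JUND with vehicle the highest value was 0.00177 and with DHT 0.00327, and for FOSL2 these were 0.000479 and 0.00159, which kept all 4 calls.

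**Figure D5:**
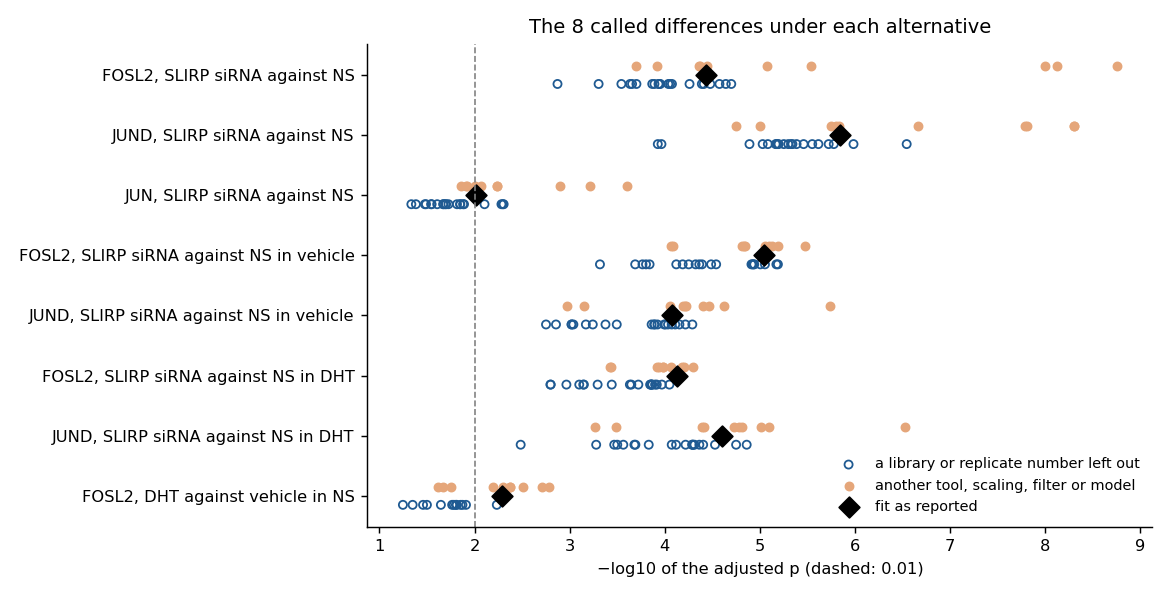
The 8 calls made among the members, each at its −log10 adjusted p (horizontal axis) in the fit as reported (diamond), with a library or replicate number left out (open circles) and under another tool, scaling, filter or model (filled circles). The dashed line marks an adjusted p of 0.01, and the calls on JUN and on FOSL2 with DHT in NS cells are the ones with points on both sides of it.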

How the data were processed

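RNA-seq was run on single 50-base reads of 16 LNCaP libraries. Per the labels and the study's methods, the authors aligned reads to hg19 with CASAVA and RSEM and deposited RSEM expected counts as whole numbers. A second deposited table (13148 genes, unit treated as a score) is normalized: the authors scaled the counts to a fixed upper quartile and rounded them. The annotation, versions, settings and strandedness are not given in the sources used here. RSEM shares reads that fit several genes by estimate, so closely related genes can exchange counts. The 29 entries without a symbol (0.0353% of counts) were kept under their full identifiers and filtered like the others, and 0 columns belonged to other samples.

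Expected counts were tested with edgeR 4.0.16 in R 4.3.3 (TMM scaling, filterByExpr, quasi-likelihood test, Benjamini-Hochberg FDR over all genes tested, threshold 0.01). The siRNAs were compared over 8 against 8 libraries without a covariate, and NS DHT against vehicle within 8 libraries. The comparisons within a treatment, DHT in SLIRP siRNA cells and the difference in response came from 1 model of 4 groups. CPM values are TMM-scaled, and log2 CPM values use a prior count of 2. Fold changes come from the edgeR fit with its default prior count. Their SE is the absolute log2 fold change divided by the square root of the test's F statistic, not an error given by the fit. The study itself used SAM at a threshold on the false discovery rate. The fits were tested on simulated counts, with changes of 1 on the log2 scale put only in well-counted genes. The same spread was used for every gene. Smaller changes and members at low counts are not covered. The changes were called in 97.0% of changed genes for the pooled comparison of siRNAs (10175 genes fitted). The share was 82.5% for DHT in NS cells, 80.0% for the siRNAs with vehicle and 41.5% for the difference in response (10642 genes). Libraries of a group differed by more than sampling noise (chi-square per degree of freedom 1.21 to 2.26), so none was counted as a copy. Depth was 436353 to 1689708 counts per library, and limits from counts cover counting error only. Alternatives were DESeq2 1.42.0, limma 3.58.1 on the normalized table (log2 with a pseudocount of 1 or 0.1), RLE scaling, other filters, covariates, the replicate number or its pairs (1 and 2, 3 and 4) as a block, and each library left out.

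Promoters came from RefSeq (GRCh38.p14), loci from the hg19 annotation. Genes named beyond the members were, in each list, the up to 4 with the largest absolute change among those called over the pooled libraries with a mean of at least 30 counts. The genes most alike were sought among genes of that mean count. Exceptions are marked in the text. The members and lists were chosen with earlier results of these data known.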

Additional observations from a re-analysis of the deposited data

Results flagged for a closer look

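The level of FOS in the 4 SLIRP-Veh libraries was picked out because 1 library stood apart from the other 3. SLIRP-Veh replicate 3 was at 1.35 CPM, which is 1 count, and the other 3 were at 0.00 CPM. Of 40 groups of 4 libraries examined (10 members in 4 groups), this was the 1 picked out, and chance picks out about 5% of groups. No difference in DHT response between siRNAs was detected for any of the 7 tested members.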

How the results depend on the processing

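The calls on JUND and FOSL2 between siRNAs kept their direction and their side of the threshold under every alternative tried, pooled and in each treatment. The number of members called stayed at 2 or 3 in each of these comparisons, but not always with the same genes. Without a low-count filter the 3 pooled calls were EGR1 (higher), FOSL2 and JUND, and JUN was not called. For the pooled JUN call, lost under 21 of 32 alternatives, and for DHT in NS cells, where the members called were 0 with DESeq2, 0 with limma at either pseudocount and 0 without the 2 smallest NS-Veh libraries (chosen after seeing the data), the cause was not tested. Leaving out libraries or replicate numbers gave 0 to 1 members called there. In SLIRP siRNA cells an FDR of 0.05 gave 1 member (FOSL2) called with DHT. The genes called over the whole table numbered 2744 to 4748 between siRNAs (3581 as reported), 24 to 293 with DHT in NS cells (136 as reported) and 46 to 309 with DHT in SLIRP siRNA cells (125 as reported). The lowest of these for NS cells came from limma with a pseudocount of 0.1, and without a low-count filter the counts were 236 and 220. EGR1, FOS and IER3 have values only without a low-count filter and in limma on the normalized table, and KLF6 has none with at least 10 counts in every library.

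Values near 0 changed sign, all of them uncalled. Between siRNAs over the pooled libraries, IER2 was at 0.00872 with DESeq2, 0.00871 with RLE scaling, 0.00896 without a low-count filter and 0.00815 with at least 10 counts in every library. With limma and a pseudocount of 1, JUNB was at -0.0225 and DUSP1 at -0.0438 over the pooled libraries, and KLF6 at 0.0611 and DUSP1 at -0.0159 with vehicle. With a pseudocount of 0.1 these were -0.0227, -0.0441, 0.0613 and -0.0162. With a library or replicate number left out, the pooled values were -0.0367 to 0.0946 for JUNB, -0.0543 to 0.0667 for IER2 and -0.0608 to 0.103 for DUSP1. With vehicle they were -0.062 to 0.236 for JUNB, -0.194 to 0.0708 for KLF6 and -0.146 to 0.229 for DUSP1, and with DHT -0.184 to 0.125 for JUNB and -0.13 to 0.0378 for DUSP1. The DHT difference was -0.173 to 0.0987 for DUSP1 in NS cells, and in SLIRP siRNA cells -0.517 to 0.0791 for JUNB and -0.371 to 0.00368 for DUSP1. The difference in DHT response was -0.00631 to 0.129 for FOSL2, -0.0849 to 0.0487 for JUN, -0.155 to 0.0779 for JUND, -0.349 to 0.0935 for JUNB and -0.323 to 0.169 for DUSP1. IER3 without a low-count filter was at -0.168 to 0.193 between siRNAs.

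The labels do not say that a replicate number marks a shared batch, and deviations of same-numbered libraries from their group means correlated at only 0.000111 to 0.201 over 6965 genes, so single numbers were not taken as pairs. In 7 of 16 matches between groups a library correlated best with its own number, and in 14 of 16 with a number of the same pair (1 and 2, or 3 and 4), a hint from the data and not from the design. With the number as a replicate block, 3 members were called between siRNAs and 1 with DHT in NS cells, as reported, and the genes called with DHT in NS cells rose from 136 to 270. The difference in DHT response of JUN was 0.0212 with the block. With the number pairs as a block (chosen after seeing the data), the members called were the same but for JUN with vehicle, the genes called with DHT were 293 in NS cells and 201 in SLIRP siRNA cells, and the values that changed sign were -0.0064 for JUNB between siRNAs and 0.0208 for the difference in DHT response of JUN.

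Depth limits the low members most: FOS, EGR1 and IER3 gave at most 17 counts in any library, and JUNB, KLF6 and DUSP1 at most 45.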
